A study of Mus musculus with 18 samples.

Results

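The 40 genes described here act in mitosis or in the passage from G2 phase into it, and they were followed in bone marrow-derived macrophages given modified LDL. They were chosen by name, as the rows of the gene count table whose symbol is on a list of G2/M cyclins, mitotic kinases, kinetochore, spindle and cytokinesis proteins, and all 40 were found among its 31053 genes. The rule uses no measured value, though the list was drawn up with earlier results of these data known. Every one of the 40 passed the filter on low counts, which left 12290 genes for testing, and each had counts in all 18 libraries, with a lowest count of 6 (Ttk in wild type control replicate 3).

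The libraries were made from macrophages of 6 mice, 12 weeks old and on a C57Bl/6J background, 3 of each genotype. In Slc7a7 LysM-/- mice (called knockout below) the amino acid transporter gene Slc7a7 is deleted in cells in which the LysM promoter drives Cre, which are myeloid cells, and Slc7a7 LysM+/+ mice are called wild type. Bone marrow cells were differentiated for 7 days, and cells of each mouse then spent 24 h in control medium with vehicle (PBS), with acetylated LDL (Ac-LDL, 50 µg/mL) or with oxidized LDL (Ox-LDL, 100 µg/mL), so that each mouse gave 3 libraries and each group held 3. The question behind the design was whether loss of Slc7a7 changes how macrophages respond to lipid loading. The doses of the 2 LDL forms differed, so kind of LDL and dose cannot be told apart where they are compared.

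Total counts per library were between 1043492 and 1768816. Slc7a7 itself was lower in knockout libraries in every medium, at 4.33 to 10.3 CPM (counts relative to the scaled library total) in control medium, 2.22 to 5.22 under Ac-LDL and 8.67 to 10.9 under Ox-LDL, beside 11.1 to 21.1, 23.6 to 28.5 and 25.9 to 29.3 in wild type. The macrophage markers Cd68, Csf1r and Adgre1 were at or above 490.8, 1312 and 795 CPM in every library. Not all macrophage markers were this high, and Fcgr1, Mertk and C1qa stayed at or below 67.97, 90.6 and 137.5 CPM. Erythroid and lymphoid markers summed to at most 2.19 and 3.15 CPM, and of the 8 stem and progenitor markers Kit, Flt3 and Gata2 stayed at or below 2.36 CPM while Cd34 (2.74 to 28.5 CPM) and Meis1 (8.13 to 19.7 CPM) had counts in all 18 libraries. One library stood apart. Wild type control replicate 3 held the lowest level of the 18 libraries for 31 of the 40 genes, and within its group wild type control replicate 1 was highest for 38. Medians over the 40 genes that rest on wild type control cells are therefore also given without each of these libraries.

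Mitosis is entered when the kinase CDK1, bound to cyclin A or cyclin B, becomes active. Kinetochore proteins then attach chromosomes to spindle microtubules, motor proteins of the kinesin family build the spindle, a checkpoint holds the anaphase-promoting complex (APC/C) until all chromosomes are attached, and the APC/C then marks cyclin B for destruction so that the cell can divide. Transcripts of these genes accumulate together late in the cell cycle, and promoters of many of them carry a cell cycle homology region (CHR), bound by the MuvB complex, and CCAAT boxes, bound by NF-Y. Macrophages grown from bone marrow with M-CSF keep dividing in culture.

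Promoter sequences are shown for 6 genes named in the results below. Changes in level were not compared between genes with and without these elements. Each is the 150 bases before an annotated start, from RefSeq on GRCm38.p6, read 5′ to 3′ on the strand of the gene, with matches to CHR (TTTGAA or TTCGAA, on either strand) and CCAAT (on either strand) in capitals. Mki67 lies at chr7:135716380-135716529 (minus strand), Top2a at chr11:99024190-99024339 (minus strand), Cdk1 at chr10:69352913-69353062 (minus strand), Prc1 at chr7:80294326-80294475 (plus strand), Ube2c at chr2:164769779-164769928 (plus strand) and Ndc80 at chr17:71526858-71527007 (minus strand). A further Prc1 window, at chr7:80294301-80294450, is not shown and held a CCAAT match but no CHR match.
Mki67: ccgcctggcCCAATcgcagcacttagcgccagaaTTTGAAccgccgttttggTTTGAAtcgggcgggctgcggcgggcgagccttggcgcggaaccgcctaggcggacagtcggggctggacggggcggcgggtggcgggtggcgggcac
Top2a: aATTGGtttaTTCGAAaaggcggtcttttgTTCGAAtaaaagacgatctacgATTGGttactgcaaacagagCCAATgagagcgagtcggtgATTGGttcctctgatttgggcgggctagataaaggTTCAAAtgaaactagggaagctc
Cdk1: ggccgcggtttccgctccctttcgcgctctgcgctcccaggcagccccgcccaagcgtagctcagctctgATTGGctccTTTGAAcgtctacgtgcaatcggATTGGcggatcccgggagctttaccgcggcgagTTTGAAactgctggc
Prc1: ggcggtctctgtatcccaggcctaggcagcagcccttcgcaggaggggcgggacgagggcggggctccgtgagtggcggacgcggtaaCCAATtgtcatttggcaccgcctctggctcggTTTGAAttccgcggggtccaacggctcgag
Ube2c: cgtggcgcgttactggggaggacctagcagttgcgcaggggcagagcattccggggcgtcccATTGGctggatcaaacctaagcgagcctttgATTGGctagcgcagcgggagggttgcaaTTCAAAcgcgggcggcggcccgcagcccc
Ndc80: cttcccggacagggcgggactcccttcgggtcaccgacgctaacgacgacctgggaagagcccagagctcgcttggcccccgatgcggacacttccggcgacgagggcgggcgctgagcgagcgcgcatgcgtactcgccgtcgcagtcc

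Top2a and Cdk1 held more than 1 match to both motifs, whereas the Ndc80 window held neither. RefSeq promoters were found for 35 of the 40 genes, in 37 windows. In the 250 bases before the start, a CCAAT match was present in 29 of the 37 windows (78.4%), beside 33.8% of the 32851 windows of all genes. A CHR match was present in 15 (40.5%, beside 17.1% of all), and both motifs in 14 (37.8%, beside 6.02% of all). These are matches of letters only, and binding was not measured.

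Levels of the 40 genes differed widely. Per kilobase of exon, Mki67, a protein that coats mitotic chromosomes and serves as the usual marker of dividing cells, was highest with a mean of 40.2 CPM per kilobase. Smc4 and Top2a followed at 28.3 and 26.9, and the checkpoint kinase Ttk was lowest at 2.52 CPM per kilobase. Ttk ranged from 4.37 to 26.9 CPM over the 18 libraries and Mki67 from 182 to 578 CPM. Summed over the 40 genes, the level was 2222 ± 935 CPM (SD, n = 3) in wild type control cells, 2905 ± 208 under Ac-LDL and 2220.0 ± 147 under Ox-LDL. In knockout cells it was 2380 ± 81.5, 3199.5 ± 448 and 2324 ± 146 CPM in the same order.

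In every knockout mouse the sum was higher with Ac-LDL than in control. It went from 2317 to 2690.3, from 2472 to 3535 and from 2351 to 3373 CPM in knockout mice 1, 2 and 3, and the 2 groups did not overlap. In wild type it went from 2145.5 to 3008 and from 1328 to 2666 CPM in mice 2 and 3, but from 3193 to 3041 in mouse 1, so these groups overlapped. With Ox-LDL the sums were 2165 to 2451 CPM in knockout and 2055 to 2335 CPM in wild type cells, below every Ac-LDL library of either genotype (2666 to 3535 CPM). In bulk RNA, a smaller number of dividing cells and less of these transcripts per dividing cell cannot be told apart.

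**Figure D1:**
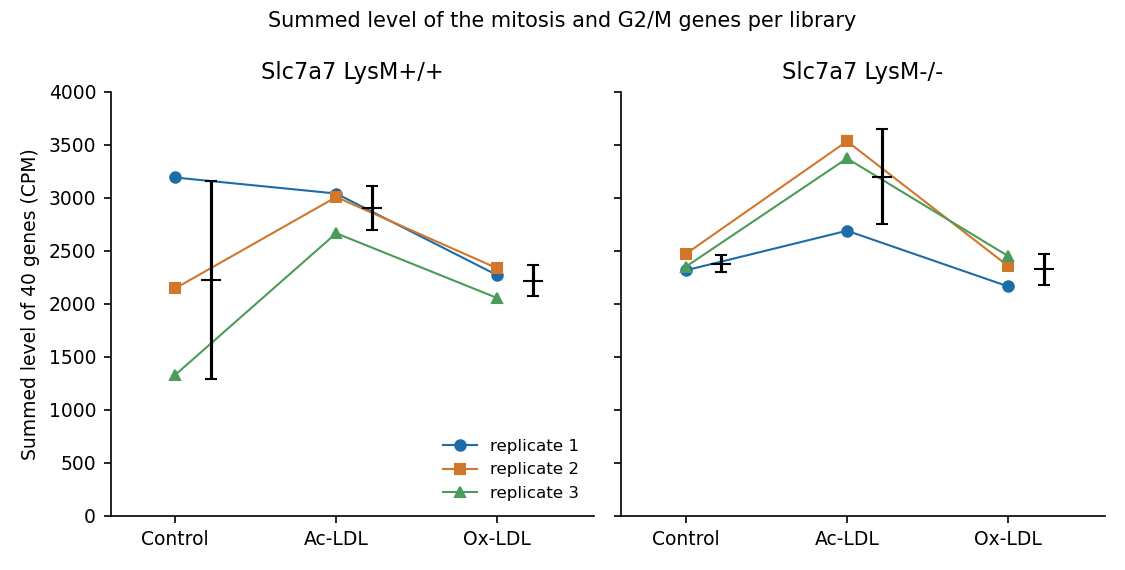
Summed level of the 40 genes in each library (CPM, linear axis), with lines joining the 3 media of a mouse and black bars giving the mean and SD of each group (n = 3). The Ac-LDL libraries sit between 2666 and 3535 CPM and the Ox-LDL libraries between 2055 and 2451 CPM, while wild type control libraries spread from 1328 to 3193 CPM.

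Libraries with Ac-LDL were compared with control to ask how lipid loading alters these genes. Averaged over both genotypes, the fold change was above 1 for all 40 genes, beside 48.9% of all genes tested, with a median log2 fold change of 0.35 (range 0.02 to 0.80) beside -0.01 for all genes. By edgeR's quasi-likelihood test, with p adjusted over all genes tested by Benjamini-Hochberg, 5 of the 40 rose and 0 fell, beside 0.561% of all genes that rose and 1.44% that fell. At an unadjusted p under 0.05, 19 were higher (5.66% of all genes) and 0 lower (6.15%). DESeq2 called 7 higher and 0 lower (0.586% and 1.4% of all genes), namely Ndc80, Mki67, Cenpe, Smc2, Cenpf, Kif11 and Kif20b.

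The kinetochore gene Ndc80, whose product is the main microtubule-binding site of the kinetochore, rose most, by 0.80 on the log2 scale (SE 0.17, adjusted p = 0.00919). Ndc80 was measured at 38.1, 25.8 and 11.7 CPM in control medium, 46.5, 52.5 and 40.8 under Ac-LDL and 38.5, 29.0 and 30.6 under Ox-LDL in wild type cells. In knockout libraries Ndc80 was at 33.8, 35.9 and 31.6 CPM, 52.8, 56.6 and 52.8 CPM and 39.6, 39.0 and 30.6 CPM in the same order. Every Ac-LDL library was above every control library of its genotype, and Ndc80 was called without any 1 library (adjusted p up to 0.0292). Mki67 rose by 0.64 (SE 0.15, adjusted p = 0.0211). Mki67 was measured at 459.6, 252 and 182 CPM in control medium, 461, 491 and 428 under Ac-LDL and 318, 435 and 318 under Ox-LDL in wild type cells. In knockout libraries Mki67 was at 331, 359.7 and 349 CPM, 479.9, 578 and 564 CPM and 360.3, 434 and 475 CPM in the same order. In knockout cells the control and Ac-LDL libraries did not overlap, while in wild type cells mouse 1 had nearly the same level in both media and mice 2 and 3 had far higher levels with Ac-LDL.

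Cenpe, a kinesin that carries chromosomes to the spindle equator from the kinetochore, rose by 0.53 (SE 0.13, adjusted p = 0.0234). Cenpe was measured at 81.7, 67.7 and 43.0 CPM in control medium, 105, 89.4 and 85.0 under Ac-LDL and 64.5, 83.3 and 65.2 under Ox-LDL in wild type cells. In knockout libraries Cenpe was at 73.6, 92.9 and 83.8 CPM, 100.1, 134 and 119 CPM and 75.8, 82.8 and 83.8 CPM in the same order. Its control and Ac-LDL libraries did not overlap in either genotype. Smc2, a subunit of the condensin that compacts chromosomes, rose by 0.52 (SE 0.13, adjusted p = 0.0367). Smc2 was measured at 109, 81.0 and 59.8 CPM in control medium, 139, 142 and 114 under Ac-LDL and 68.1, 111 and 112 under Ox-LDL in wild type cells. In knockout libraries Smc2 was at 97.7, 99.7 and 115 CPM, 119.8, 150.5 and 134 CPM and 95.1, 119 and 125 CPM in the same order. Each Smc2 control library lay below each Ac-LDL library in both genotypes. Kif4, a chromosome-bound kinesin of the central spindle, rose by 0.65 (SE 0.17, adjusted p = 0.0409), and DESeq2 gave an adjusted p of 0.0692. Kif4 was measured at 20.4, 18.1 and 15.3 CPM in control medium, 28.5, 36.9 and 27.9 under Ac-LDL and 27.8, 22.8 and 20.9 under Ox-LDL in wild type cells. In knockout libraries Kif4 was at 27.1, 23.5 and 23.9 CPM, 30.7, 37.8 and 36.0 CPM and 19.4, 22.6 and 38.7 CPM in the same order. Kif4 groups did not overlap in either genotype with Ac-LDL, whereas its knockout Ox-LDL libraries spread from below the knockout controls to the highest level of any library.

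**Figure D2:**
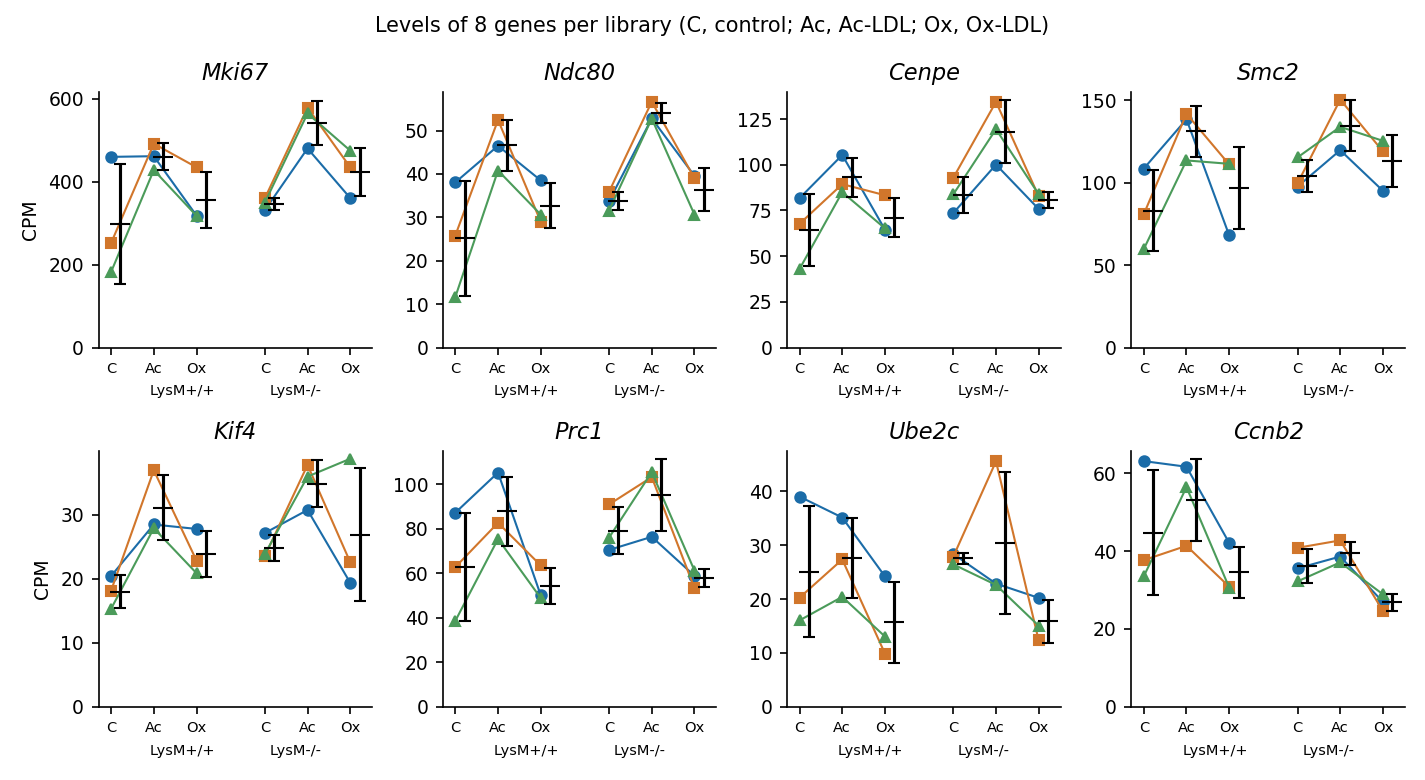
CPM (linear axis from 0) of 8 genes in each library, with lines joining the 3 media of a mouse (circles, squares and triangles for replicates 1, 2 and 3) and black bars giving mean and SD (n = 3). Ndc80 with Ac-LDL is at 40.8 to 56.6 CPM and all other libraries are at 11.7 to 39.6 CPM, and the group means of Ube2c and Ccnb2 are lowest with Ox-LDL.

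By role, the 5 spindle microtubule proteins (Nusap1, Hmmr, Ckap2, Ckap2l and Prc1) had a median log2 fold change of 0.50 with Ac-LDL, and all 5 were at an unadjusted p under 0.05 without passing the adjusted threshold. The 5 kinetochore and centromere genes had a median of 0.48 and the 6 mitotic kinesins of 0.47. The remaining kinesins near the threshold were Kif20b, which acts in cytokinesis, at 0.70 (adjusted p = 0.0524) and the spindle motor Kif11 at 0.58 (adjusted p = 0.0649). Medians were smaller for CDK1 and the mitotic cyclins (0.28), for the 7 Aurora, Polo and chromosomal passenger genes and their cofactors (0.27), for the 3 checkpoint genes (0.17) and for the group of Cdc20, Ube2c and Cdca3 (0.16). None of these last groups held a called gene. The difference between roles was not tested.

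Top2a, the topoisomerase that untangles chromosomes, was at 0.34 (SE 0.13, adjusted p = 0.270). Top2a was measured at 299, 216 and 133 CPM in control medium, 266, 277 and 242 under Ac-LDL and 215, 219 and 185 under Ox-LDL in wild type cells. In knockout libraries Top2a was at 233, 240.2 and 242 CPM, 247, 349 and 339 CPM and 200.4, 235 and 224 CPM in the same order. All knockout Ac-LDL libraries were above all knockout controls, though replicate 1 only slightly. Among the regulators of entry, Cdk1 was at 0.37 (SE 0.20) and Ccna2, which encodes cyclin A2, at 0.39 (SE 0.20), with adjusted p of 0.513 and 0.454. Cdk1 was measured at 56.6, 35.6 and 18.2 CPM in control medium, 61.7, 48.0 and 51.0 under Ac-LDL and 61.8, 39.5 and 37.8 under Ox-LDL in wild type cells. In knockout libraries Cdk1 was at 52.5, 54.5 and 37.4 CPM, 33.1, 71.1 and 55.7 CPM and 33.7, 41.7 and 41.6 CPM in the same order. Cdk1 groups overlapped in both genotypes, and in knockout mouse 1 it was lower with Ac-LDL. Ccna2 was measured at 141, 70.5 and 35.7 CPM in control medium, 102, 102 and 107 under Ac-LDL and 100.3, 53.1 and 67.8 under Ox-LDL in wild type cells. In knockout libraries Ccna2 was at 69.3, 63.8 and 74.8 CPM, 73.3, 99.4 and 103 CPM and 61.5, 58.8 and 57.8 CPM in the same order. For Ccna2, wild type control replicate 1 was above every other library and control replicate 3 below every other. The cyclin B genes Ccnb1 and Ccnb2 were at 0.13 (SE 0.20) and 0.19 (SE 0.15). Ccnb1 was measured at 61.3, 46.8 and 20.4 CPM in control medium, 66.4, 39.2 and 38.1 under Ac-LDL and 57.3, 29.0 and 28.7 under Ox-LDL in wild type cells. In knockout libraries Ccnb1 was at 44.6, 47.0 and 42.5 CPM, 52.8, 46.1 and 46.4 CPM and 35.4, 32.2 and 29.5 CPM in the same order. Ccnb1 was lower in each knockout Ox-LDL library than in any knockout control or Ac-LDL library.

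Of the kinases, Aurkb (Aurora B, the enzyme of the chromosomal passenger complex) was at 0.47 (SE 0.21, adjusted p = 0.341) and was higher with Ac-LDL in 6 of 6 mice. Aurkb was measured at 20.4, 24.4 and 8.02 CPM in control medium, 22.8, 27.3 and 17.7 under Ac-LDL and 24.2, 17.3 and 17.6 under Ox-LDL in wild type cells. In knockout libraries Aurkb was at 21.1, 21.7 and 18.1 CPM, 25.2, 30.0 and 36.0 CPM and 21.9, 13 and 16.8 CPM in the same order. Knockout control and Ac-LDL libraries did not overlap for Aurkb. Plk1 (Polo-like kinase, needed for spindle and centrosome maturation) was at 0.31 (SE 0.19) and Aurka (Aurora A, a centrosome kinase) at 0.02 (SE 0.24). Cdc20, the co-activator that turns on the APC/C at anaphase, was at 0.31 (SE 0.25). Cdc20 was measured at 21.4, 19.5 and 8.02 CPM in control medium, 27.5, 21.4 and 10.9 under Ac-LDL and 13.4, 9.26 and 13.7 under Ox-LDL in wild type cells. In knockout libraries Cdc20 was at 15.1, 8.05 and 17.4 CPM, 17.3, 18.3 and 15.7 CPM and 15.2, 9.58 and 15.03 CPM in the same order. Control and Ac-LDL libraries overlapped for Cdc20 in both genotypes, while in knockout cells each Ox-LDL library was below each Ac-LDL library.

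**Figure D3:**
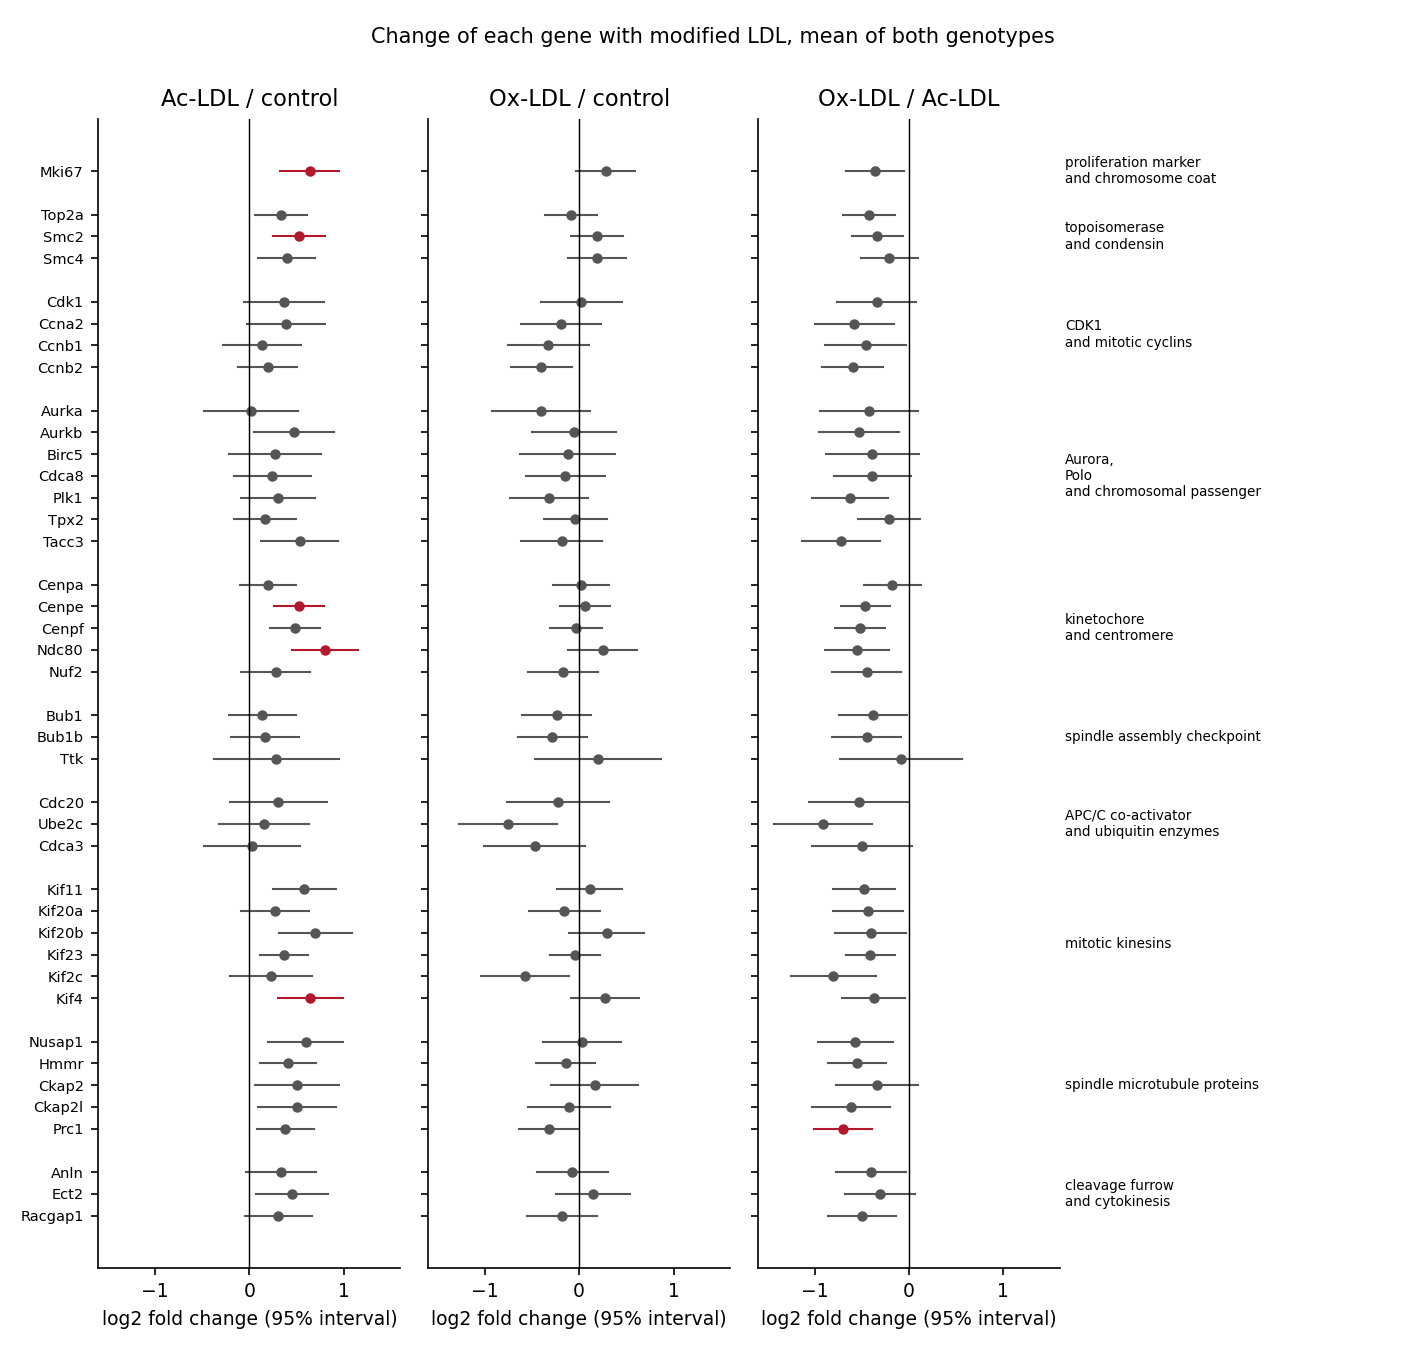
Log2 fold change (point) with its 95% interval (line) for each of the 40 genes, grouped by role, from the edgeR fit and averaged over both genotypes, with adjusted p under 0.05 in red. All 40 points lie above 0 for Ac-LDL over control and below 0 for Ox-LDL over Ac-LDL, and 14 lie above 0 for Ox-LDL over control.

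Because the 3 libraries of a mouse are labelled as the same animal, a fit with the mouse as a block was also made. With this block, 15 of the 40 rose with Ac-LDL (2.35% of all genes) and 0 fell (3.5%). They were the 5 genes above with Cenpf, Kif20b, Kif11, Nusap1, Kif23, Hmmr, Tacc3, Smc4, Prc1 and Top2a, and Top2a had an adjusted p of 0.00696. Within mice, 11 genes were higher with Ac-LDL in 6 of 6 mice, beside 4.67% of all genes. The median change over the 40 genes was 0.40 and 0.92 in wild type mice 2 and 3 and 0.14, 0.52 and 0.49 in knockout mice 1, 2 and 3, but -0.03 in wild type mouse 1, where 19 of the 40 were higher.

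The count of called genes depended on single libraries. It was 19 without wild type control replicate 1 and 8 without knockout Ac-LDL replicate 1. It was 3 without knockout control replicate 2, 2 without wild type control replicate 2 or Ac-LDL replicate 2, and 1 without wild type control replicate 3, knockout control replicate 1 or 3 or knockout Ac-LDL replicate 2 or 3. Without wild type control replicate 1 the median log2 fold change was 0.54, with 40 of 40 genes above 0. Without wild type control replicate 3 the median was 0.22, with 37 of 40 genes above 0. The fit with the mouse block and without wild type control replicate 3 called 9 genes, with a median of 0.27. Here and below, counts from fits without a library or of only the libraries compared have no share of all genes beside them. Whether calls over all genes moved alike is therefore not shown.

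**Figure D4:**
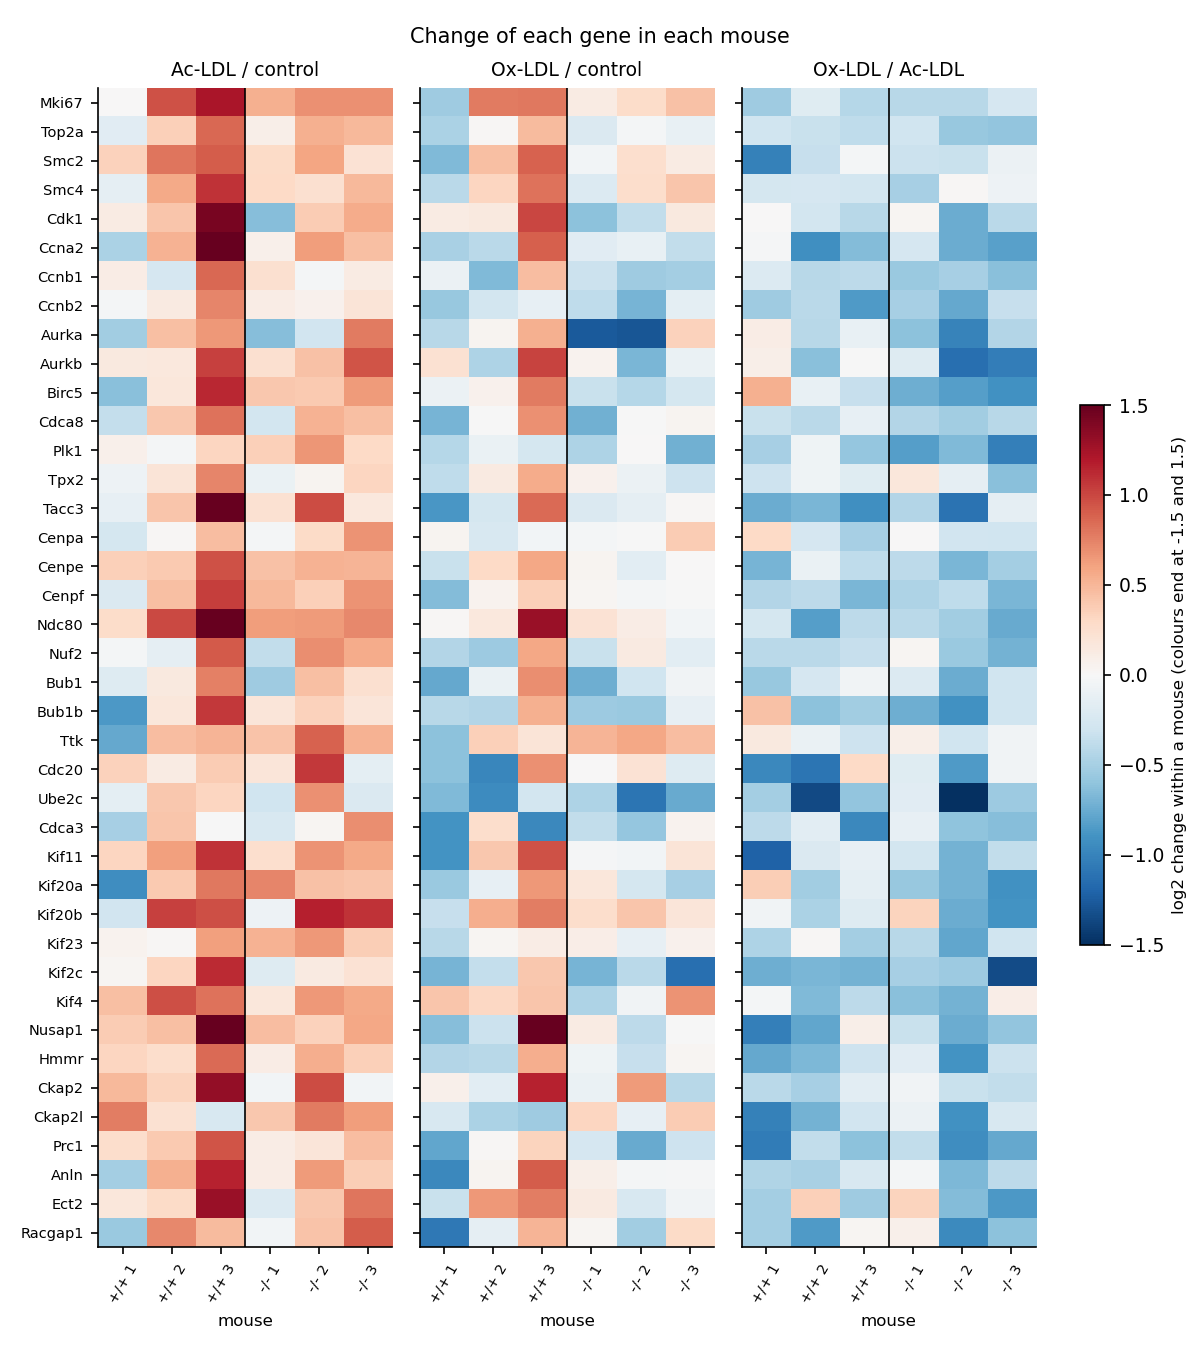
Log2 change of each gene (rows) within each mouse (columns, +/+ wild type and -/- knockout, replicates 1 to 3), red for higher and blue for lower, with colours ending at -1.5 and 1.5. With Ac-LDL over control, 37 and 38 of 40 genes are higher in wild type mice 2 and 3, 26, 38 and 37 in the knockout mice and 19 in wild type mouse 1.

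Within each genotype, the test with 3 libraries a group called 0 of the 40 genes. In wild type cells 38 of 40 were higher with Ac-LDL (49.4% of all genes), 13 at an unadjusted p under 0.05 (3.2% of all genes), with 0 of 40 past the adjusted threshold (0.0651% of all genes rose and 0.407% fell) and a median of 0.31. Of these, Ndc80 (0.92, adjusted p = 0.147), Smc2 (0.67) and Kif4 (0.80) had the smallest p. Cenpe, Kif4, Ndc80 and Smc2 did not overlap between the groups (5.5% of all genes higher without overlap). The median was 0.02 without control replicate 3, and 0.67 with 4 genes called without control replicate 1, and the fit with the mouse block called 5 (Cenpe, Kif11, Mki67, Ndc80 and Smc2, 0.724% of all genes).

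In knockout cells the median was 0.39, with 39 of 40 higher (49.1% of all genes), 12 at an unadjusted p under 0.05 (3.41% of all genes) and 0 called (0.0732% of all genes rose and 0.448% fell). The groups did not overlap for 16 genes, all higher with Ac-LDL, beside 7.32% of all genes. Kif20b was at 0.82 (SE 0.25, adjusted p = 0.233), and Kif23, a kinesin of the central spindle that is needed for cytokinesis, at 0.53 (SE 0.17). With the mouse block 6 were called (Cenpe, Cenpf, Kif20b, Kif23, Mki67 and Ndc80, 0.797% of all genes), and the fit of the 6 libraries of this comparison alone called 5.

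The comparison of Ox-LDL with control medium used the same control libraries. Averaged over both genotypes 14 were higher (51.5% of all genes) and 26 lower (48.4%) than in control, with a median log2 fold change of -0.10 (all genes, 0.01), and 0 of 40 were called by edgeR (1.81% of all genes rose and 3.57% fell). At an unadjusted p under 0.05, 0 were higher (7.58% of all genes) and 4 were lower (9.03%), and DESeq2 called 0 (beside 1.68% and 3.36% of all genes). The 4 lower genes were a share of the 40 close to that of all genes. These 4 were the ubiquitin-conjugating enzyme of the APC/C, Ube2c (-0.75, SE 0.25, adjusted p = 0.0922), the microtubule-depolymerizing kinesin Kif2c (-0.57, SE 0.22), Ccnb2 (-0.40, SE 0.16) and Prc1 (-0.32, SE 0.15).

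Ube2c was measured at 39.0, 20.2 and 16.04 CPM in control medium, 35.1, 27.3 and 20.4 under Ac-LDL and 24.2, 9.88 and 13.04 under Ox-LDL in wild type cells. In knockout libraries Ube2c was at 28.3, 27.9 and 26.4 CPM, 22.9, 45.5 and 22.6 CPM and 20.2, 12.3 and 15.03 CPM in the same order. Each knockout Ox-LDL library was below each knockout control for Ube2c, and in wild type cells the groups overlapped but each mouse was lower with Ox-LDL. Ube2c and Ccnb2 were the 2 genes lower with Ox-LDL in 6 of 6 mice (7.46% of all genes were). Ccnb2 was measured at 63.1, 37.7 and 33.5 CPM in control medium, 61.7, 41.4 and 56.4 under Ac-LDL and 42.1, 30.9 and 30.6 under Ox-LDL in wild type cells. In knockout libraries Ccnb2 was at 35.6, 40.9 and 32.2 CPM, 38.6, 42.8 and 37.1 CPM and 26.9, 24.6 and 28.9 CPM in the same order. The 3 knockout Ox-LDL libraries held the lowest Ccnb2 levels of all 18 and did not overlap with knockout control. With the mouse block Ube2c fell (adjusted p = 0.00694) and Mki67 rose (log2 fold change 0.31, adjusted p = 0.0454), beside 4.39% of all genes that rose and 6.95% that fell.

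By role and averaged over both genotypes, all 3 genes of the group of Cdc20, Ube2c and Cdca3 (median -0.47) and all 7 Aurora, Polo and chromosomal passenger genes (median -0.15) were lower with Ox-LDL. Mki67 (0.28, SE 0.15) and the condensin genes Smc2 and Smc4 (both 0.19) were higher, and none of these genes passed the threshold. Of the 7 Aurora, Polo and passenger genes, 3 were higher in wild type cells (median -0.04) and 0 in knockout cells (median -0.25). In wild type cells 0 of 40 were called (0.277% of all genes rose, 1.07% fell) at a median of -0.09, and in knockout cells 0 (0.659% rose, 1.66% fell) at -0.11. The smallest p in wild type cells were those of Ube2c (-0.69, adjusted p = 0.556), Cdca3 (-0.62) and Ccnb2 (-0.37), and in knockout cells those of Kif2c (-0.81, adjusted p = 0.241), Ube2c (-0.81) and Aurka (-0.77). In knockout cells 7 genes were lower without overlap (11.6% of all genes) and 3 higher (10.1%), the latter being Kif20b, Mki67 and Ttk. The wild type median was -0.33, with 6 of 40 above 0, without control replicate 3. The pooled median was 0.07 without wild type control replicate 1 and -0.24 without replicate 3, where 2 genes were called lower. Without wild type control replicate 1 the pooled fit called 1 gene higher and the wild type fit 1 (wild type median 0.29), and without wild type Ox-LDL replicate 1 the pooled fit called 1 gene lower.

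The Ox-LDL and Ac-LDL libraries were also compared directly, a comparison added after the values had been seen, which shares its libraries with the comparisons above. Its contrast leaves out the control libraries. They still entered the fit through the spread shared by all groups and, where used, the mouse block. Averaged over both genotypes all 40 genes were lower with Ox-LDL (49.2% of all genes), with a median log2 fold change of -0.45 (range -0.91 to -0.08). Of them 29 were at an unadjusted p under 0.05 (4.24% of all genes), and Prc1 alone passed the adjusted threshold (0.195% of all genes fell and 0.195% rose). Prc1, which bundles the microtubules of the central spindle, fell by 0.70 on the log2 scale (SE 0.15, adjusted p = 0.0385).

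Prc1 was measured at 87.3, 62.8 and 38.6 CPM in control medium, 105, 82.7 and 75.5 under Ac-LDL and 50.2, 63.6 and 48.9 under Ox-LDL in wild type cells. In knockout libraries Prc1 was at 70.5, 91.0 and 76.1 CPM, 76.4, 103 and 106 CPM and 58.9, 53.4 and 61.3 CPM in the same order. In both genotypes every Ox-LDL library was below every Ac-LDL library for Prc1. Next in order of p were Cenpf, a kinetochore protein that accumulates in G2 phase, at -0.52 (adjusted p = 0.0833), and Ccnb2 at -0.59 (adjusted p = 0.116). Ube2c, Kif2c and the spindle protein Tacc3 had the largest differences beside Prc1, at -0.91, -0.80 and -0.72, and Mki67 was at -0.36 (SE 0.15). The smallest difference was that of Ttk (-0.08, SE 0.31).

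Within mice, 22 of the 40 genes were lower with Ox-LDL than with Ac-LDL in 6 of 6 mice, beside 4.51% of all genes, and the median change of the 40 ranged from -0.71 (knockout mouse 2) to -0.32 (knockout mouse 1). The fit with the mouse block called 17 genes lower and 0 higher (1.98% and 1.25% of all genes), among them Cenpf, Cenpe, Hmmr, Ccnb2, Ccna2, Plk1, Top2a and Mki67. In wild type cells 39 of 40 were lower (48.6% of all genes), 13 without overlap (4.44% of all genes), and 0 were called (0% of all genes rose and 0.00814% fell), while with the mouse block Prc1 fell (0.358% of all genes did). In knockout cells 40 of 40 were lower (50% of all genes), 21 without overlap (6.93%), with 0 called (0.00814% rose and 0.057% fell), and the mouse block called 6 (0.871%), namely Birc5, Cenpe, Cenpf, Plk1, Prc1 and Top2a.

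Plk1 in knockout cells was at -0.88 (SE 0.28), with an adjusted p of 0.641 and, with the mouse block, 0.0412. Plk1 was measured at 26.9, 27.2 and 18.2 CPM in control medium, 28.5, 26.6 and 23.1 under Ac-LDL and 19.7, 25.3 and 15 under Ox-LDL in wild type cells. In knockout libraries Plk1 was at 14.5, 19.8 and 21.9 CPM, 18.9, 32.2 and 27.3 CPM and 10.1, 19.8 and 12.7 CPM in the same order. Ox-LDL and Ac-LDL libraries overlapped for Plk1 in both genotypes, while within each of the 6 mice the Ox-LDL library was the lower. The Prc1 call was lost without wild type Ac-LDL replicate 2, Ox-LDL replicate 1 or 3, knockout Ac-LDL replicate 2 or 3, or any knockout Ox-LDL library (adjusted p at most 0.108), and without wild type Ox-LDL replicate 2 there were 2 calls.

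**Figure D5:**
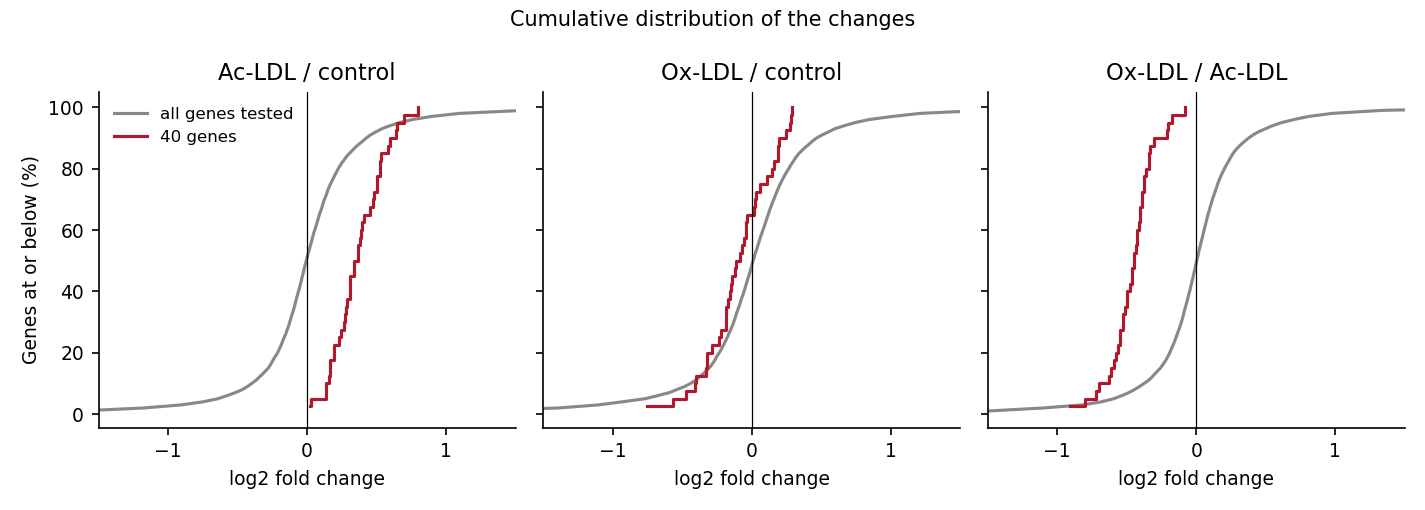
Cumulative share of genes (percent) at or below each log2 fold change, for the 40 genes (red) and all 12290 genes tested (grey), averaged over both genotypes. The red curve lies right of the grey for Ac-LDL over control (medians 0.35 and -0.01), near it for Ox-LDL over control (-0.10 and 0.01) and left of it for Ox-LDL over Ac-LDL (-0.45 and 0.00).

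The genotypes were compared to ask whether loss of Slc7a7 alters these genes. With the 3 libraries of each mouse summed, 0 of the 40 genes differed between knockout and wild type (0% of all genes rose and 0.00789% fell, 12673 tested), and DESeq2 called 0 (0.00789% rose and 0.0316% fell). The median log2 difference was 0.09, and it was 0.24 without wild type mouse 1 (37 of 40 above 0) and -0.04 without wild type mouse 3 (15 of 40). In the comparison of all mice 2 genes were higher at an unadjusted p under 0.05 (2.04% of all genes), the kinetochore genes Cenpf (0.33, 95% interval 0.06 to 0.60) and Cenpe (0.32, 0.03 to 0.60), both with an adjusted p of 0.9799 in edgeR. Ccnb2 was lower in knockout cells at -0.34 (95% interval -0.69 to 0.02). A missed threshold does not show that the genotypes were alike. The library numbers in the labels run through all wild type libraries before the knockout ones, so library order and genotype cannot be told apart.

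Within a medium 0 of 40 differed in control (0% of all genes rose and 0.00814% fell), under Ac-LDL (0% and 0.0163%) and under Ox-LDL (0% and 0.00814%), at medians of 0.11, 0.12 and 0.03. Cenpe (0.35), Ccnb2 (-0.42) and Cenpf (0.34) had the smallest p with Ac-LDL, and Cenpf (0.33), Plk1 (-0.48) and Ccnb2 (-0.34) with Ox-LDL. In knockout control cells 1 gene was higher at an unadjusted p under 0.05, Cenpe (0.39, beside 2.1% of all genes). There were 0 with Ac-LDL (2.46% of all genes higher and 2.43% lower) and 0 with Ox-LDL (2.15% and 2.63%). The control median was 0.45 without wild type replicate 1 and -0.21 without wild type replicate 3. An interaction of genotype and medium was called for 0 of 40 genes with either LDL (0% of all genes in each direction). At an unadjusted p under 0.05 there were 0 for Ac-LDL (1.37% of all genes higher and 1.29% lower) and 0 for Ox-LDL (1.46% and 1.29%), with medians of 0.01 and -0.10. Kif20a (0.54, SE 0.35), Ttk (0.86, SE 0.64) and Kif23 (0.33) had the smallest p for Ac-LDL, and Ckap2l (0.66, SE 0.42), Cdk1 (-0.64) and Aurka (-0.74) for Ox-LDL. Without wild type control replicate 3 these medians were 0.29 and 0.17, and without replicate 1 they were -0.37 and -0.41.

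Other genes of the cell cycle were counted from lists of neighbouring functions. With Ac-LDL, 4 of 74 other mitosis genes rose (Knl1, Depdc1a, Aspm and Ncapg2, by 0.60, 0.99, 0.53 and 0.45), 0 fell, and the median was 0.38, and with the mouse block 15 rose. Of 46 genes of S phase and DNA replication 3 rose (Pola1, Brca1 and Atad2, by 0.81, 0.84 and 0.65) with 0 falling and a median of 0.42, and with the mouse block 18 rose. Of all genes 0.561% rose, and 2.35% did so with the block. Neither list holds any of the 40 genes above. Of 17 G1 cyclins and growth signal genes 0 were called (median 0.12), with Rbl1 (0.51) and Myc (0.63) at the smallest p, and with the mouse block Myc, Rbl1 and Ccnd1 rose and Csf1r fell. Of 15 CDK inhibitors and p53 targets 0 were called (median -0.07), and Cdkn2c was at 0.54 and rose with the mouse block.

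With Ox-LDL over control, Cenpu (0.98) and Ncapg2 (0.33) of the other mitosis genes rose (median 0.07), as did the S phase genes Pola1 (0.76) and Atad2 (0.56, with a median of 0.22), beside 1.81% of all genes. With the mouse block 4 other mitosis genes rose and 2 fell, 8 S phase genes rose, Myc rose, and Sesn1 of the p53 targets fell. Of all genes 4.39% rose and 6.95% fell with the block. S phase genes had a positive median with both LDL forms. With Ox-LDL 43 of 46 were above 0 (51.5% of all genes) and with Ac-LDL 44 (48.9%). The 40 G2/M genes had a positive median with Ac-LDL and a negative one with Ox-LDL, where that of other mitosis genes was 0.07. The sign with Ox-LDL rested on 1 library. Without wild type control replicate 1 the median of the 40 genes was 0.07, with 26 above 0. Between Ox-LDL and Ac-LDL the medians were -0.33 for other mitosis genes and -0.16 for S phase genes, with 0 called in each. With the mouse block 10 other mitosis genes fell, Foxm1, Spc25, Stmn1 and Aspm among them, and so did the S phase gene Mcm7 and, of the CDK inhibitors and p53 targets, Cdkn2c and Sesn1 (1.98% of all genes fell). The difference between these lists was not tested. Csf1r, the M-CSF receptor, was at -0.46 with Ox-LDL over control (adjusted p = 0.0604) and fell with the mouse block.

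Markers of macrophages and of other cells differed in level between the groups. Granulocyte markers summed to 80.9 to 134 CPM in wild type control, 86.4 to 222 under Ac-LDL and 151 to 262 under Ox-LDL, and in knockout cells to 57.0 to 153, 27.8 to 74.9 and 67.7 to 119 CPM. The 15 macrophage markers summed to 30004 to 42314 CPM in wild type control, 31505 to 41937 under Ac-LDL and 26488 to 36168 under Ox-LDL. In knockout cells they summed to 22950 to 26787, 19893 to 23454.5 and 17499.9 to 19051 CPM in the same order. Wild type control replicate 3, the library lowest for most of the 40 genes, held the highest of these sums. Lyz2, the gene whose LysM promoter drives Cre in these mice, made up much of the sum. Mean Lyz2 was 24242 CPM in wild type and 13234 CPM in knockout control libraries, and 21148 and 8971 CPM in those with Ox-LDL. Lyz2 was the 1 marker of the 15 called between genotypes, under Ac-LDL and under Ox-LDL and with the replicate block also in control, and the median of the 15 was -0.03 in control. With Ox-LDL over control 2 of the 15 rose and 4 fell (median log2 fold change -0.21), beside 1.81% and 3.57% of all genes. With the mouse block 3 rose and 8 fell, beside 4.39% and 6.95% of all genes. Progenitor markers stayed between 12.9 and 43.0 CPM in sum, stromal and endothelial ones between 2.85 and 36.7 and dendritic cell ones between 0.680 and 12.1. With the mouse block Cd34 and the granulocyte gene S100a9 rose and the dendritic cell gene Itgax fell with Ox-LDL over control. Of all genes 4.39% rose and 6.95% fell. Ltf, S100a8 and S100a9 rose with Ox-LDL over Ac-LDL (1.25% of all genes). Some other members differed by genotype. From control to Ox-LDL, mean Ngp went from 25.1 to 51.4 CPM in wild type but from 28.1 to 21.2 in knockout cells. In the same order Lcn2 went from 9.09 to 9.43 and from 8.35 to 4.91. The progenitor gene Meis1 went from 11.9 to 15.3 and from 11.3 to 9.99. The part of these markers in the results above was not tested.

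Some of these genes share sequence with copies elsewhere. In GENCODE transcripts, 27.7% of the 31-base words of Ccnb1 were shared mainly with the pseudogene Ccnb1-ps, 25.5% of Cdc20 with Gm7856, 14.8% of Plk1 with Plk-ps1 and 10.2% of Ckap2 with Gm7988 and 7.86% of Ndc80 with 2700099C18Rik, so their counts are less certain. A gene on the opposite strand overlapped 13 of the 40, Ube2c, Prc1, Kif4 and Smc2 among them, and the strand setting of the counting is not given in the sources used here. Ndc80 (17, 71496100 to 71526857), Mki67 (7, 135689784 to 135716361) and Cenpe (3, 135212537 to 135273611), by chromosome and position on GRCm38, had no opposite-strand overlap.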

How the data were processed

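RNA of bone marrow-derived macrophages was sequenced in 18 libraries (SMARTer Stranded Total RNA-Seq kit, single-end). The authors ran an nf-core pipeline with Trim Galore, STAR on mm10 and Salmon on Ensembl release 93, and deposited estimated counts per gene. Versions and the strand setting are not given in the sources used here. Expected counts were rounded to whole numbers. Total counts per library, 1043492 to 1768816, limit the precision for low genes.

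Genes with a count of at least 2 in enough libraries and at least 10 in all were kept (edgeR filterByExpr, 12290 genes). One model of the 6 groups was fitted with edgeR 4.0.16 in R 4.3.3 (TMM factors 0.956 to 1.03, quasi-likelihood test, Benjamini-Hochberg over all genes, threshold 0.05). Log2 fold changes of the fits have 95% intervals. A prior count of 2 was used only for log2 CPM, from which changes within mice and correlations between libraries were taken. Pooled contrasts are the mean of both genotypes. Genotypes were compared within each medium and on counts summed per mouse (12673 genes). The main fit treats the 18 libraries as independent, with a spread shared by all groups, so its p-values leave out that 3 libraries came from each mouse. On summed counts p-values measure the spread between mice, 3 per genotype. With the mouse block they measure the spread of the LDL responses between mice. Labels give each mouse 1 number in all 3 media, and deviations of libraries of the same mouse correlated at 0.0551 to 0.293 (over 0.1 in 14 of 18 pairs), so a fit with the mouse as a block is given where it changed a call of a gene or list. DESeq2 1.42.0, other scalings and filters, and fits without each library were the alternatives.

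CPM are TMM-scaled. Lists of other cell cycle genes and of macrophage, granulocyte, progenitor, erythroid, lymphoid, stromal and dendritic markers were counted without a test of the list. The 40 genes and all lists were chosen with earlier results of these data known. Named genes were 8 core genes (Mki67, Top2a, Cdk1, Ccnb1, Ccna2, Plk1, Cdc20 and Aurkb), those called, the 3 with the smallest p per comparison and those highest and lowest per length, and others named for their counts or groups were chosen after their values were seen. The model code was tested on simulated data.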

Additional observations from a re-analysis of the deposited data

How the results depend on the processing

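The direction of the median over the 40 genes was the same under DESeq2, library size scaling, the default filter, no filter, a fit of only the libraries compared and the replicate block for Ac-LDL over control and Ox-LDL over Ac-LDL, but the number of genes called moved. For Ac-LDL over control (5 called with both genotypes) it was 7 with DESeq2, 8 with library size scaling, 11 with no filter, 15 with the replicate block and 9 with the block and no wild type control replicate 3, and it ranged from 1 to 19 when each library was left out. For Ox-LDL over Ac-LDL (1 called) it was 2 with DESeq2, 15 with no filter, 2 with only the libraries compared, 17 with the replicate block and 24 with the block and no wild type control replicate 3, and ranged from 0 to 2 without each library. For Ox-LDL over control (0 called) it was 1 with no filter, 2 with the replicate block and 7 with the block and no wild type control replicate 3, and 0 to 2 without each library. Calls over all genes moved too. With Ac-LDL over control 0.561% of all genes rose in the main fit, 0.586% with DESeq2 and 2.35% with the block. With Ox-LDL over Ac-LDL 0.195% fell in the main fit and 1.98% with the block. Where no share of all genes is given, a moved count does not show that only the 40 genes moved. Within wild type cells, where 0 were called, Ac-LDL over control gave 4 with no filter and 5 with the replicate block (0 to 4 without each library), Ox-LDL over control 0 to 1 without each library, and Ox-LDL over Ac-LDL 1 with the block and 4 with the block and no control replicate 3. Within knockout cells, where 0 were called, Ac-LDL over control gave 2 with no filter, 5 with only the libraries compared and 6 with the block, Ox-LDL over control 1 with only the libraries compared, and Ox-LDL over Ac-LDL 2, 4 and 6 under the same settings. The genotype comparisons and the genotype difference in the responses gave 0 called under every alternative run, the block by replicate number included, where numbers do not mark a shared animal across genotypes. Directions moved with the wild type control libraries: the number of the 40 genes above 0 went from 38 to 23 in wild type Ac-LDL over control and from 27 to 8 between genotypes in control without control replicate 3, from 14 to 26 for pooled Ox-LDL over control without control replicate 1, and to 6 and 36 for the genotype difference in the Ac-LDL response without replicates 1 and 3. Sign changes of single genes are given for the 8 core genes under Ac-LDL over control and, in each comparison, for the genes called or with the 3 smallest p: Ccnb1 with Ac-LDL over control ranged from -0.026 (without wild type control replicate 3, and -0.0077 without wild type Ac-LDL replicate 1) to 0.296, Ttk in the genotype difference for Ac-LDL from -0.017 (without wild type control replicate 1) to 1.31, and Cdca3 in wild type Ox-LDL over control from -0.93 to 0.030 (without control replicate 1). The alternatives with the block and no wild type control replicate 3, and those for Ox-LDL over Ac-LDL, were chosen after seeing the data. The cause of these shifts was not tested. With 3 mice per genotype and about 1466145 counts in the median library, changes in the lowest genes, such as Ttk, have wide intervals.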
